A study of Mus musculus with 6 samples.

Results

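Neural progenitor cells (NPC) were compared with the mouse embryonic stem cells (ESC) from which they had been grown, across the genes of the whole genome and by gene family. The comparison used 4 of the study's 6 libraries, chosen by their titles: ESC 1, ESC 2, NPC 1 and NPC 2, with n = 2 in each group. The other 2 libraries, of cells labelled Phc1-KO, entered only the shared estimate of spread. Both groups had the wild-type genotype of strain J1. The ESC were kept with LIF and fetal bovine serum on embryonic fibroblasts that mitomycin-C had inactivated, and feeder cells were depleted before use. The NPC were derived from J1 ESC by differentiation in vitro and were maintained by a published method, so cell type and culture conditions cannot be told apart. The labels call the libraries of a group biological replicates but do not say how many derivations the NPC came from, so p-values measure the spread between these samples only. Total RNA was depleted of ribosomal RNA and sequenced as single-end reads of 50 bases, and the deposited values are counts of reads per gene.

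Stem cells of this kind renew themselves under a network of transcription factors around Pou5f1, Nanog and Sox2, divide rapidly, depend strongly on glycolysis and grow as colonies joined by epithelial junctions. Neural progenitors in culture resemble radial glia, the progenitor of the embryonic brain, and divide under EGF and FGF. They have shut off most of the pluripotency network, keep Sox2, and can form neurons, astrocytes and oligodendrocytes.

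Genes took 15766448 and 16018670 reads in ESC 1 and 2 and 15226214 and 15336155 in NPC 1 and 2. Levels below are in CPM, counts brought to a common library size by the TMM method. Beyond counting noise, the coefficient of variation within a pair was 1.98% for ESC and 27.5% for NPC. For each read in a gene, 0.839 and 0.851 reads fell outside genes in the ESC libraries and 1.03 and 1.09 in the NPC libraries. The part of that difference in the results was not tested.

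The labels were first checked against the marker genes. Pou5f1, the core pluripotency factor Oct4, stood at 358 and 344 CPM in ESC 1 and 2 and 1.12 and 1.49 CPM in NPC 1 and 2. It lies on chromosome 17 (mm9, 35642982 to 35647721, plus strand). Nanog, its partner, stood at 218 and 223 CPM in ESC 1 and 2 and 0.329 and 0.584 CPM in NPC 1 and 2. Olig2, a basic helix-loop-helix factor of neural and oligodendrocyte progenitors, stood at 0.185 and 0.0608 CPM in ESC 1 and 2 and 254 and 58.6 CPM in NPC 1 and 2. It lies on chromosome 16 (mm9, 91225795 to 91228922, plus strand). All 3 separated the groups without overlap, as most genes tested did (NPC above at 41.8%, NPC below at 43.4%). Olig2 also differed widely within the NPC pair. Fabp7, which binds fatty acids in radial glia, stood at 1.54 and 1.28 CPM in ESC 1 and 2 and 1355 and 459 CPM in NPC 1 and 2, again with no overlap. All 4 passed the test, as did 61.3% of all genes tested. The test was edgeR's quasi-likelihood test with Benjamini-Hochberg adjustment over all genes (adjusted p from 5.05e-06 for Nanog to 2.38e-04 for Olig2). Of the wider lists, all 20 pluripotency factors fell, and 13 of 17 neural progenitor factors rose, against 30.9% and 30.4% of all genes tested.

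**Figure D1:**
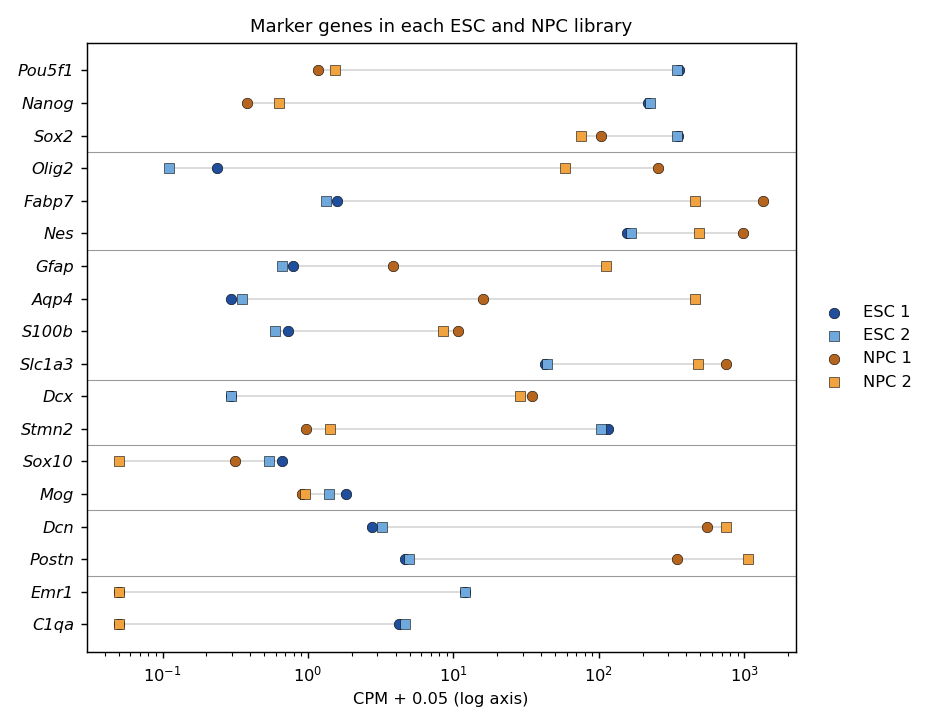
Levels of marker genes in each library. The x axis gives CPM plus 0.05 on a log axis, each row is 1 gene, and circles and squares are the first and second library of ESC (blue) and NPC (brown and orange). Pou5f1 and Nanog lie at the right in ESC and near 1 CPM in NPC, Olig2 and Fabp7 lie the other way round, and the NPC libraries stand far apart for Gfap and Aqp4.

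Most of the transcriptome differed. Among 17489 genes tested, 5315 were higher in NPC (30.4%) and 5406 were lower (30.9%), together 61.3%, at an adjusted p under 0.05. The median log2 fold change over all genes tested was -0.01. Changes of over 2-fold numbered 3881 higher and 3799 lower, and fitted changes of over 16-fold 643 and 891. Of the genes that fell, 285 had no count in either NPC library, and of those that rose, 43 had none in either ESC library. Both NPC libraries lay above both ESC libraries at 41.8% of the genes tested and below them at 43.4%. Member counts below are read against the 30.4% of all genes that were higher and the 30.9% that were lower.

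**Figure D2:**
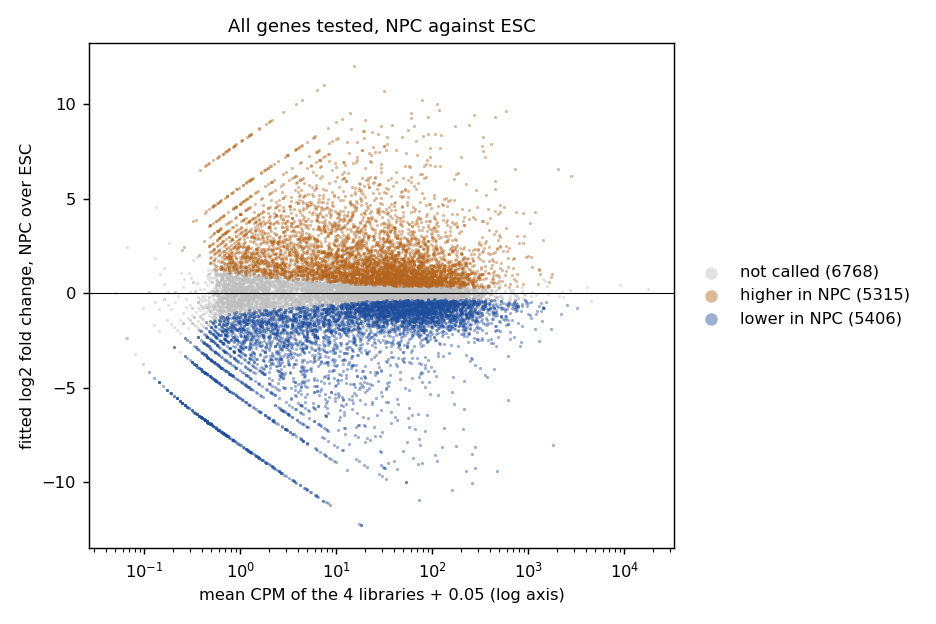
All genes tested. The x axis gives the mean CPM of the 4 libraries plus 0.05 on a log axis, the y axis the fitted log2 fold change of NPC over ESC, and each point is 1 gene, coloured by its call. Called genes lie on both sides in similar numbers, and the diagonal streaks at low levels are genes with 0 or few counts in 1 group, whose fitted change is no bound.

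Of the 10 genes that gained the highest levels in NPC, 6 encode secreted or matrix proteins. The share of such proteins over all genes tested was not counted. Col3a1, a fibrillar collagen, went from 73.4 and 76.3 to 4575 and 6361 CPM, the largest gain by difference in mean CPM. Igf2, a fetal growth factor, went from 43.6 and 42.3 to 4357 and 3746 CPM, and Igfbp3, a carrier of insulin-like growth factors, from 111 and 115 to 2952 and 1563 CPM. Others were Fbn2, a fibrillin, Serpine2, a protease inhibitor, and Fstl1, a secreted glycoprotein. Inside the cell, Ckb, brain creatine kinase, rose by 4.25 (SE 0.41) on the log2 scale and Ccnd2, cyclin D2, by 3.70 (SE 0.20). The NPC libraries lay above both ESC libraries for each of these genes, as for 5313 of the 5315 genes called higher.

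The highest levels lost included the glucose transporter Slc2a3, which went from 3611 and 3621 to 11.7 and 16.2 CPM. Pkm2, pyruvate kinase, went from 2241 and 2186 to 496 and 281 CPM and Ldha, lactate dehydrogenase, from 1442 and 1446 to 222 and 199.9 CPM. Fn1, fibronectin, went from 2788 and 2686 to 593 and 859.7 CPM and Spp1, osteopontin, from 1198 and 1225 to 41.7 and 7.08 CPM, with the NPC libraries unequal for Spp1. Hsp90ab1, Serbp1, Ncl and Rif1 also lost high levels, with log2 fold changes of -1.12 (SE 0.15), -1.91 (SE 0.16), -1.46 (SE 0.23) and -2.59 (SE 0.15). Hsp90ab1 is a chaperone, Serbp1 and Ncl bind RNA in the ribosome and nucleolus, and Rif1 acts in replication timing and at telomeres.

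Several of the largest relative increases were in glial and neuronal membrane proteins. Mlc1, an astrocyte membrane protein, stood at 0.185 and 0.365 CPM in ESC 1 and 2 and 184 and 176 CPM in NPC 1 and 2. Grm5, a metabotropic glutamate receptor, stood at 0.0617 and 0.365 CPM in ESC 1 and 2 and 272 and 180.0 CPM in NPC 1 and 2. Mdga2, an adhesion molecule of synapses, stood higher by a ratio of 912 (95% interval of counting, 163 to 36069), and its levels were 36.2 and 19.7 CPM in NPC 1 and 2. Fmo2, a monooxygenase, stood at 0.123 and 0.243 CPM in ESC 1 and 2 and 119 and 120.3 CPM in NPC 1 and 2. Absence of overlap between the groups was a condition for choosing the largest changes. At the other end, Vrtn, Elf3, Plac8, Tcl1, Aire and Apoc1 had no count in NPC, and their fall was at least 99.4-fold for Apoc1 and at least 176-fold for Vrtn. Elf3 is an epithelial ETS factor, Aire the autoimmune regulator and Apoc1 a lipoprotein component.

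The NPC libraries differed from each other far more than the ESC libraries did. A gap of over 2-fold separated NPC 2 from NPC 1 at 1298 genes (7.42%), 621 higher in NPC 2 (3.55%) and 677 higher in NPC 1 (3.87%). The ESC pair differed that much at 12 genes (0.0686%). With 1 library on each side these gaps have no test. Among genes called higher in NPC, 11.7% had such a gap, and among genes called lower, 3.44%.

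Genes far above in NPC 2 included Gfap, the astrocyte filament, at 3.81 and 112 CPM in NPC 1 and 2, and Aqp4, the astrocyte water channel, at 15.8 and 458 CPM. Stra6, a retinol transporter, stood at 3.49 and 45.6 CPM and Aldh1a2, which makes retinoic acid, at 4.14 and 51.2 CPM. Osr2, a limb and palate factor, stood at 1.38 and 16.7 CPM and Prrx1, which marks limb mesenchyme, at 105 and 379.8 CPM. Aldh1a2 was not called without ESC 1 or either Phc1-KO library. Sfrp1, a secreted Wnt antagonist, stood at 30.5 and 211 CPM against 46.8 and 46.8 CPM in ESC, so the ESC libraries lay between the NPC libraries. Sfrp1 did not pass, but did as higher without NPC 1 (adjusted p = 0.000466; its alternatives ranged from 0.000466 to 0.444).

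Genes far above in NPC 1 included Cd93, a membrane lectin known from endothelium, at 111 and 2.21 CPM in NPC 1 and 2. ESC 1 and 2 stood at 3.39 and 2.19 CPM, so Cd93 was 1 of 2 genes called higher whose libraries overlapped. It was not called without NPC 1 (adjusted p = 0.503; its alternatives ranged from 3.06e-05 to 0.503), nor without ESC 1, ESC 2 or either Phc1-KO library. Gabbr2, a GABA-B receptor subunit, stood at 20.9 and 0.909 CPM, Kcna2, a potassium channel, at 35.4 and 3.05 CPM, and Dll1, a Notch ligand, at 23.1 and 2.79 CPM. Dll1 stood at 7.83 and 7.12 CPM in ESC, between the NPC libraries, and did not pass, though it did as higher without NPC 2 and as lower without NPC 1. Gabbr2 was not called without NPC 1, ESC 1, ESC 2 or either Phc1-KO library. Itga4, an integrin, stood at 136 and 18.4 CPM and Cdh4, R-cadherin, at 112 and 14.6 CPM, each above ESC in both libraries.

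**Figure D3:**
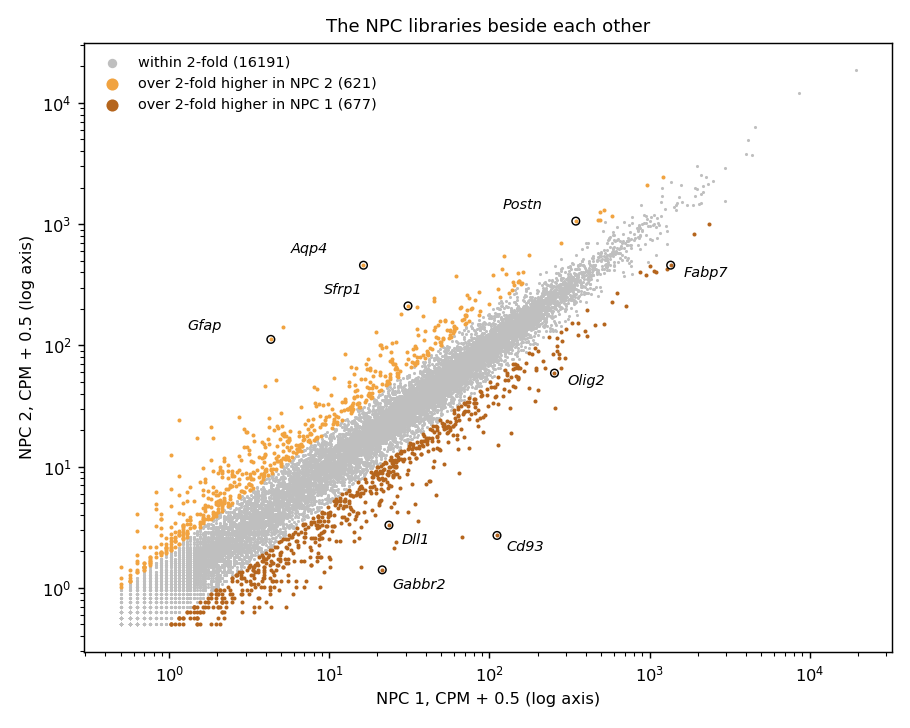
NPC 2 plotted against NPC 1. Both axes give CPM plus 0.5 on log axes, each point is 1 of the 17489 genes tested, and colour marks genes over 2-fold apart. Gfap, Aqp4, Sfrp1 and Postn lie above the diagonal, at higher levels in NPC 2, and Cd93, Gabbr2, Dll1, Olig2 and Fabp7 lie below it.

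Markers of other cells were read as whole lists, since bulk RNA cannot tell fewer cells of a type from less RNA per cell. Of 18 fibroblast markers tested, 12 rose and 3 fell. Together they summed to 806 and 796 CPM in ESC 1 and 2 and 8231 and 12736 CPM in NPC 1 and 2. Postn, periostin, stood at 4.63 and 4.93 CPM in ESC 1 and 2 and 346 and 1059 CPM in NPC 1 and 2. Prrx1 is given above, and 7 of the 18 were over 2-fold higher in NPC 2. The 3 that fell were Tagln, of contractile cells, at -3.82 (SE 0.52) on the log2 scale, S100a4 and Mfap5. No marker of the list was at 0 in NPC. The part of fibroblast-like RNA in the matrix results below was not tested.

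Astrocyte markers rose at 13 of 18 tested and fell at 1, Apoe. Slc1a2, the main glial glutamate transporter, stood at 2.78 and 1.70 CPM in ESC 1 and 2 and 93.6 and 95.7 CPM in NPC 1 and 2, and S100b, a calcium-binding protein, at 0.678 and 0.547 CPM in ESC 1 and 2 and 10.7 and 8.44 CPM in NPC 1 and 2. Slc1a2 and S100b were even between the NPC libraries, unlike Gfap and Aqp4. Of the 18 markers tested, 4 were over 2-fold higher in NPC 2 and 2 in NPC 1. Agt, angiotensinogen, stood higher by a ratio of 293 (95% interval of counting, 80.8 to 2429), and its levels were 25.5 and 10.5 CPM in NPC 1 and 2.

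Of 15 oligodendrocyte lineage markers tested, 7 rose and 3 fell, or 5 fell without NPC 1. Olig1, a factor of the lineage, stood at 0.617 and 0.608 CPM in ESC 1 and 2 and 281 and 143 CPM in NPC 1 and 2 and Pdgfra, the PDGF receptor of oligodendrocyte progenitors, at 16.6 and 14.4 CPM in ESC 1 and 2 and 182 and 238 CPM in NPC 1 and 2. Nkx2-2, a ventral progenitor factor, rose by 4.81 (SE 1.07) on the log2 scale. Mbp, a myelin protein, fell, with a log2 fold change of -2.72 (SE 0.40), and Mog, another, stood at 1.79 and 1.34 CPM in ESC 1 and 2 and 0.855 and 0.909 CPM in NPC 1 and 2 and did not pass. Sox10, the factor of the whole lineage, stood at 0.263 and 0 CPM in NPC 1 and 2 and did not pass, but did as lower without NPC 1.

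Neuron markers also went both ways, 5 of 16 higher and 4 lower, or 7 lower without NPC 1, shares close to those over all genes. Dcx, doublecortin of young neurons, stood at 0.247 and 0.243 CPM in ESC 1 and 2 and 34.5 and 28.5 CPM in NPC 1 and 2, and Map2, a dendritic microtubule protein, at 33.1 and 34.4 CPM in ESC 1 and 2 and 1006 and 448 CPM in NPC 1 and 2. Stmn2, a growth cone protein, fell from 116 and 104 to 0.921 and 1.36 CPM and Tubb3, a neuronal tubulin, from 33.2 and 31.6 to 4.41 and 3.18 CPM. Neural crest markers rose at 8 of 13 and fell at 3. Ednrb, the endothelin B receptor, stood at 0.493 and 1.09 CPM in ESC 1 and 2 and 399 and 698 CPM in NPC 1 and 2, while Foxd3, the early crest factor, had no count in NPC, a fall of at least 37.2-fold.

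All 12 macrophage markers tested fell, of 14 listed. Together they summed to 149 and 149 CPM in ESC 1 and 2 and 6.51 and 8.44 CPM in NPC 1 and 2. Lyz2, lysozyme, made up most of this, at 100.5 and 102 CPM in ESC 1 and 2 and 1.91 and 4.35 CPM in NPC 1 and 2. Emr1 (F4/80), Itgam, Tyrobp and the C1q chains C1qa, C1qb and C1qc had no count in NPC, and for Emr1 the fall was at least 122-fold. Genes with no count in NPC passed the filter for low counts only through other libraries, so a fall was the only direction open to them. With the genes at 0 taken at their bound, the list's median log2 fold change was -4.88 in place of -6.29. Endothelial and pericyte markers were mixed, 5 higher and 5 lower of 18, or 8 lower without NPC 2, again near the background. Emcn, endomucin, stood higher by a ratio of 2059 (95% interval of counting, 369 to 81366), but Cdh5, the defining endothelial cadherin, stood at 0.925 and 0.973 CPM in ESC 1 and 2 and 0.921 and 1.36 CPM in NPC 1 and 2 and did not pass.

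Of 10 POU factors tested, 4 rose and 5 fell. The brain factors Pou3f2, Pou3f3 and Pou3f4 rose by 5.99 (SE 0.64), 8.24 (SE 0.71) and 5.83 (SE 0.48) on the log2 scale, while Pou2f1, a widely expressed member, fell, at -1.72 (SE 0.14). Among 15 SOX factors, 6 rose and 4 fell. Sox9, a gliogenic factor, stood at 2.90 and 2.86 CPM in ESC 1 and 2 and 86.9 and 48.6 CPM in NPC 1 and 2, and Sox8 rose by 5.81 (SE 0.48). Sox2, shared by both cell types, went from 352 and 347 to 103 and 75.5 CPM. Sox17, an endoderm factor, had no count in NPC.

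The forkhead list had 5 of 20 higher and 9 lower, or 5 lower without ESC 1. Foxp2, a factor of cortex and striatum, rose by 3.20 (SE 0.30) on the log2 scale. Foxh1, the nuclear partner of Nodal signalling, went from 23.3 and 22.1 to 0 and 0.130 CPM. Of neural bHLH factors, 10 of 18 rose, or 6 without ESC 1 or without ESC 2. Tcf12 and Tcf4, the general partners of proneural factors, rose by 2.97 (SE 0.15) and 2.81 (SE 0.13), and Hes1 was the member that fell, at -1.13 (SE 0.26).

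Homeobox factors other than Hox genes gave 11 higher and 6 lower of 18 tested, with 35 listed. Emx2 and Lhx2, factors of the dorsal telencephalon, stood at 10.7 and 8.96 and 11.8 and 3.38 CPM in NPC 1 and 2 and below 1 CPM in ESC. Meis1, a Hox cofactor, stood at 5.92 and 6.87 CPM in ESC 1 and 2 and 118 and 209 CPM in NPC 1 and 2. Otx2, which acts in both pluripotent cells and forebrain, fell, at -1.29 (SE 0.26) on the log2 scale. En1, a factor of the midbrain and hindbrain, rose by 2.84 (SE 0.33).

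NFI, ZIC and GLI factors, read as 1 list, rose at 9 of 14 and fell at 4. Of the NFI factors, which drive gliogenesis, Nfia stood at 8.39 and 7.66 CPM in ESC 1 and 2 and 489 and 388 CPM in NPC 1 and 2 and Nfib at 45.03 and 44.04 CPM in ESC 1 and 2 and 955 and 1174 CPM in NPC 1 and 2, and Nfix and Nfic rose by 4.05 (SE 0.38) and 1.76 (SE 0.37). Zic1 and Zic4 rose, Zic1 by 5.62 (SE 0.30), whereas Zic2 and Zic5 fell, with log2 fold changes of -1.11 (SE 0.15) and -1.58 (SE 0.23). Nuclear receptors rose at 17 of 31 and fell at 9. Rorb, a receptor of cortical layers, rose by 7.78 (SE 0.59), Rarb, a retinoic acid receptor, by 5.81 (SE 0.35) and Nr2f2, COUP-TFII, by 4.61 (SE 0.62). Esrrb, Nr0b1 and Nr6a1, receptors of the pluripotent state, fell, at -7.15 (SE 0.36), -8.96 (SE 0.27) and -4.19 (SE 0.17).

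**Figure D4:**
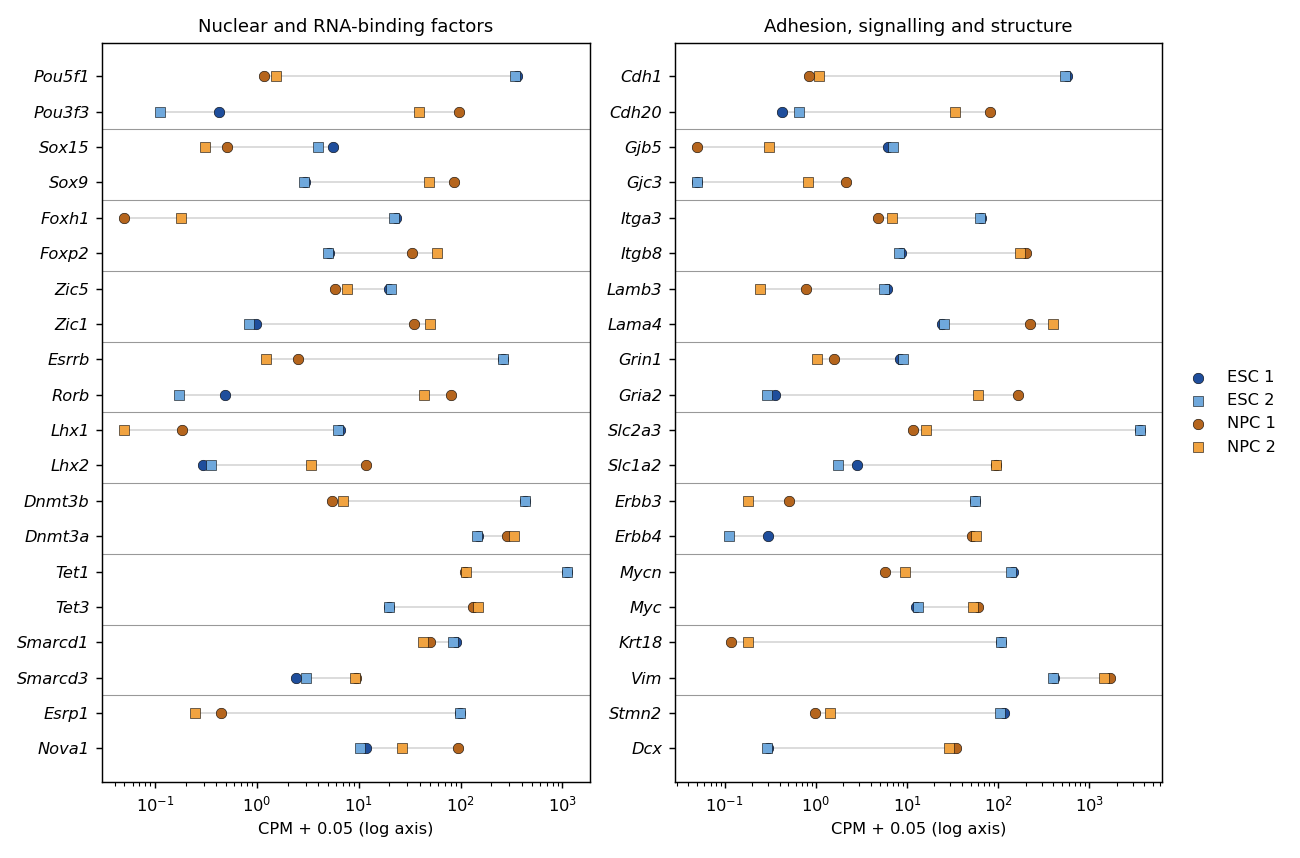
Genes of the same family or function that fell and rose, in each library. The x axes give CPM plus 0.05 on log axes, circles and squares are the first and second library of ESC (blue) and NPC (brown and orange), and lines separate the pairs, which were picked for display after their values were seen. In each pair the upper gene is lower in NPC and the lower gene is higher, with no overlap of groups.

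MicroRNA loci also changed in both directions, and some sequences are given because the sequence defines what a microRNA can bind. The counts are of reads over the hairpin locus in total RNA, so mature microRNAs were not measured. Of 80 microRNA genes tested, 13 were higher in NPC and 26 lower, the latter a share near that of all genes, and 64 were matched to RefSeq entries by sequence. The largest losses formed a cluster on chromosome 7 (mm9, 3218627 to 3220842, plus strand), which holds Mir290, Mir291a, Mir292, Mir291b, Mir293, Mir294 and Mir295. Each of these 7 genes had 108 to 266 counts in each ESC library and 0 or 1 in each NPC library. Mir293 and Mir291a had none in NPC, falls of at least 110.0-fold and 70.6-fold. The sequences used here held no 3p entry for Mir292. The mature 3p sequences of the other genes follow, from RefSeq on GRCm38.p6, with the seed (bases 2 to 8) in capitals.
miR-290a-3p: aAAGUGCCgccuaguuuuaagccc
miR-291a-3p: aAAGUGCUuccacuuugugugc
miR-291b-3p: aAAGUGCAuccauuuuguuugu
miR-294-3p: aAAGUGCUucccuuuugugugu
miR-295-3p: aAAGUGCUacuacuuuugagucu
miR-293-3p: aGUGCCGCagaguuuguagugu
In 5 of these 6 the seed opens with AAGUGC, and miR-293-3p has a different one. Gains were fewer and lower. The hairpin of miR-125b-1 had 0 and 0 counts in ESC and 20 and 21 in NPC, at least 14.6-fold more, and Mirlet7c-1 had 2 and 2 against 20 and 24. Mir335, within the Mest gene, had 3 and 4 against 64 and 80. The mature 5p sequences of let-7c and miR-125b follow, with the seed in capitals as before, and share no seed with each other or with the cluster.
let-7c-5p: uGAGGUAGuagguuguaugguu
miR-125b-5p: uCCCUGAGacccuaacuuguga

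The let-7 binding protein Lin28a, which blocks the maturation of let-7, went from 448 and 451 to 0.526 and 0.779 CPM, and its paralogue Lin28b from 149 and 148 to 13.7 and 2.40 CPM. Trim71, a target of let-7, fell, at -4.64 (SE 0.15) on the log2 scale. Of 17 genes of microRNA function tested, 3 rose and 9 fell. Drosha, which cuts the hairpin from its transcript, fell, at -1.14 (SE 0.22), and the Argonaute gene Ago4 rose, at 1.44 (SE 0.25).

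Regulators of splicing also went both ways. Of 25 tested, 10 rose and 8 fell. Esrp1, which sets epithelial splicing, stood at 98.4 and 98.5 CPM in ESC 1 and 2 and 0.395 and 0.195 CPM in NPC 1 and 2. Rbm47 and Esrp2, also of epithelia, fell, at -4.80 (SE 0.34) and -2.35 (SE 0.22) on the log2 scale. Celf2, Mbnl1 and Nova1, known from neurons and muscle, rose by 2.83 (SE 0.20), 2.27 (SE 0.12) and 2.44 (SE 0.53). Elavl2, an RNA-binding protein of neurons, fell, at -3.68 (SE 0.56).

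Genes of DNA methylation and its removal rose at 4 of 14 tested and fell at 7. Dnmt3b, a de novo DNA methyltransferase, stood at 428 and 426 CPM in ESC 1 and 2 and 5.46 and 6.95 CPM in NPC 1 and 2, while its paralogue Dnmt3a stood at 147 and 145 CPM in ESC 1 and 2 and 286 and 331 CPM in NPC 1 and 2. Dnmt3l, their cofactor in germ cells and ESC, had 0.0658 and 0.130 CPM in NPC. Tet1, which oxidises methylcytosine, went from 1109 and 1117 to 111 and 114 CPM and Tet3 the other way, from 19.7 and 19.8 to 131 and 148 CPM. The BAF remodelling complex was near or below the background, 6 higher and 4 lower of 19, with a median of -0.01. Smarca2, Smarcc2 and Smarcd3 rose, at 3.66 (SE 0.23), 1.80 (SE 0.20) and 1.79 (SE 0.29) on the log2 scale. Smarcd1 and Actl6a fell, at -0.91 (SE 0.20) and -1.33 (SE 0.22), and Smarca4, the ATPase of the ESC complex, did not pass, at -0.19 (SE 0.18). A list of linker, variant and oocyte histones fell at 11 of 17 tested and rose at 1, H2afy2, a macroH2A. Nasp, a histone chaperone, went from 1090.0 and 1094 to 242 and 173 CPM, and H2afx from 324 and 317 to 104 and 88.4 CPM.

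Of 30 cadherins tested, 23 rose and 4 fell, with a median of 2.07. Cdh1, E-cadherin of epithelia, stood at 576 and 545 CPM in ESC 1 and 2 and 0.789 and 1.04 CPM in NPC 1 and 2, and Cdh3, P-cadherin, fell as well, at -7.35 (SE 0.23) on the log2 scale. Cdh2, N-cadherin, rose from 32.1 and 31.6 to 144 and 147 CPM, Cdh20 from 0.370 and 0.608 to 81.5 and 33.2 CPM and Pcdh10, a protocadherin, by 8.23 (SE 0.47). Pcdh17 and Fat3 rose by 6.07 (SE 0.31) and 4.71 (SE 0.18). Dchs1, a cadherin of planar polarity, rose by 4.89 (SE 0.41), while the flamingo cadherins Celsr1 and Celsr3 fell, at -1.37 (SE 0.31) and -1.97 (SE 0.25).

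Tight junction and desmosome genes fell at 25 of 27 tested, and 0 rose; the median was -6.45. Epcam stood at 218 and 210.1 CPM in ESC 1 and 2 and 0.789 and 0.325 CPM in NPC 1 and 2, and Cldn4, a claudin, at 156 and 154 CPM in ESC 1 and 2 and 0.460 and 0.130 CPM in NPC 1 and 2. Cldn6 and Dsg2, a desmosomal cadherin, went from 59.8 and 58.4 to 0 and 0.130 CPM and from 64.4 and 62.7 to 0 and 0.195 CPM. Marveld3 had no count in NPC, a fall of at least 97.2-fold. The scaffold Tjp1 (ZO-1) and plakoglobin Jup, the members that did not pass, stood at 282 and 357 and 94.4 and 85.3 CPM in NPC.

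Adhesion molecules of the immunoglobulin class rose at 16 of 23 and fell at 5. Chl1, a neural relative of L1, stood at 0.555 and 0.912 CPM in ESC 1 and 2 and 377 and 309.9 CPM in NPC 1 and 2, and Lsamp, of the limbic system, at 0.370 and 0.182 CPM in ESC 1 and 2 and 79.4 and 55.6 CPM in NPC 1 and 2. Ncam1 rose from 37.3 and 34.2 to 259 and 257 CPM, whereas L1cam itself fell, at -2.52 (SE 0.39). Gap junction genes split evenly, 4 higher and 4 lower of 10, or 2 and 2 with a filter at 1 CPM. Gjb5, a connexin of epithelia, fell from 6.11 and 6.93 to 0 and 0.260 CPM. Gjc3, a glial connexin, had no count in ESC, a rise of at least 15.6-fold, and Gja1, connexin 43, stood at 315 and 326 CPM in ESC 1 and 2 and 312 and 364 CPM in NPC 1 and 2 and did not pass.

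Integrins rose at 10 of 17 and fell at 4. Itgb8, a glial partner of the alpha V chain, stood at 8.57 and 8.09 CPM in ESC 1 and 2 and 201 and 172 CPM in NPC 1 and 2. Itga1 and Itga8 rose by 4.26 (SE 0.36) and 3.60 (SE 0.28) on the log2 scale, and Itga3 and Itgb7 fell, at -3.46 (SE 0.31) and -3.81 (SE 0.30). Among laminin chains, Lama2 and Lama4 rose, at 4.59 (SE 0.26) and 3.66 (SE 0.29), whereas Lama1, Lama5 and the epithelial chain Lamb3 fell, at -1.95 (SE 0.34), -1.94 (SE 0.46) and -3.62 (SE 0.48). Col4a1, a chain of collagen IV, stood at 102 and 98.3 CPM in ESC 1 and 2 and 1022 and 1146 CPM in NPC 1 and 2. Of 20 basement membrane genes, 12 rose and 6 fell.

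Of 29 brain matrix genes tested, 20 rose and 2 fell, Acan and Sdc4, or 5 fell without NPC 2. Sdc4 was not called without ESC 1 or ESC 2. Ptprz1, a phosphatase and proteoglycan of glial progenitors, stood at 3.82 and 2.98 CPM in ESC 1 and 2 and 1095 and 551 CPM in NPC 1 and 2. Bcan, brevican, and Ncan, neurocan, stood at 1.05 and 2.01 CPM in ESC 1 and 2 and 200.4 and 121 CPM in NPC 1 and 2 for Bcan and at 19.7 and 18.6 CPM in ESC 1 and 2 and 493 and 1261 CPM in NPC 1 and 2 for Ncan. Ncan was higher in NPC 2 and Ptprz1 and Bcan in NPC 1, so these proteoglycans did not share 1 order between the NPC libraries. Tnc, tenascin C, rose from 219.7 and 215 to 1906 and 830.3 CPM. Fibroblast markers also rose over ESC at 12 of 18, as given above. Between the NPC libraries, 7 of them were over 2-fold higher in NPC 2 and 1 in NPC 1.

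Most genes tested for receptors, channels and synapses rose. Glutamate and GABA receptor genes rose at 23 of 31 tested and fell at 3, with a median of 3.32. Gria2, the AMPA receptor subunit that limits calcium entry, stood at 0.308 and 0.243 CPM in ESC 1 and 2 and 164 and 60.6 CPM in NPC 1 and 2, and Gria4 at 5.06 and 5.35 CPM in ESC 1 and 2 and 136 and 106 CPM in NPC 1 and 2. Neto1, an auxiliary kainate receptor subunit, had no count in ESC, a rise of at least 332-fold. Grin1, the obligate NMDA receptor subunit, fell, from 8.33 and 8.94 to 1.51 and 0.974 CPM, while Grin2a and Grin3a rose. Gabrp, a GABA-A subunit of non-neural tissue, had no count in NPC, a fall of at least 149-fold.

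Potassium channel genes rose at 19 of 29 and fell at 6, and 9 of them stood over 2-fold higher in NPC 1 against 2 in NPC 2. Kcnd3, an A-type channel, stood at 1.17 and 1.34 CPM in ESC 1 and 2 and 297 and 78.1 CPM in NPC 1 and 2. Kcnj16, an inward rectifier of glia, stood at 0.308 and 0.243 CPM in ESC 1 and 2 and 73.1 and 28.4 CPM in NPC 1 and 2, but its partner Kcnj10 stood at 3.15 and 2.31 CPM in ESC 1 and 2 and 2.76 and 0.584 CPM in NPC 1 and 2 and did not pass, but did as lower without NPC 1. Kcnk2, a leak channel, rose by 5.01 (SE 0.35) and Kcnk5 fell, at -3.37 (SE 0.24). Sodium and calcium channel genes rose at 20 of 28, or 12 without ESC 2, and fell at 3. Scn7a, a glial sodium channel, rose by 5.51 (SE 0.63) and Cacna1g, a T-type calcium channel, by 3.63 (SE 0.55).

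Synapse organizers rose at 19 of 24 and fell at 1, Shank1, which was not called without ESC 1, ESC 2 or NPC 2, or with DESeq2. Nlgn1, a postsynaptic adhesion protein, stood higher by a ratio of 319.5 (95% interval of counting, 88.1 to 2644), and Slitrk1 had no count in ESC, a rise of at least 95.7-fold. Slc6a11, the GABA transporter GAT-3, stood at 14.9 and 2.08 CPM in NPC 1 and 2.

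Other transporters went both ways, near the background. Of those for glucose, lactate and amino acids, 8 rose and 8 fell of 24. Slc2a1, the common glucose transporter, went from 671 and 681 to 45.8 and 21.1 CPM and Slc16a3, which exports lactate, from 190.3 and 183 to 4.21 and 5.13 CPM. Slc7a11, the cystine and glutamate exchanger, rose from 13.5 and 14.5 to 223 and 64.2 CPM. Slco1a4, an organic anion carrier, stood at 0.0617 and 0.243 CPM in ESC 1 and 2 and 34.99 and 206 CPM in NPC 1 and 2, and 4 of 21 genes in that group were over 2-fold higher in NPC 2.

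Of 29 genes for EGF, FGF and related receptors and their feedback, 21 rose and 4 fell. Egfr stood at 45.3 and 42.8 CPM in ESC 1 and 2 and 763 and 493 CPM in NPC 1 and 2, and Fgfr1 rose by 1.40 (SE 0.24) and Fgfr2 by 1.06 (SE 0.16) on the log2 scale. Erbb4 rose from 0.247 and 0.0608 to 51.6 and 56.9 CPM as Erbb3 fell from 56.2 and 55.97 to 0.460 and 0.130 CPM. Spry1, a feedback inhibitor, rose by 2.92 (SE 0.14) and Dusp6, a phosphatase of ERK, by 2.40 (SE 0.31). Lrig1, which restrains EGF receptors, rose by 2.89 (SE 0.20). The receptors Met and Kit fell, at -2.51 (SE 0.34) and -2.10 (SE 0.30).

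The Notch list had 8 of 20 higher and 3 lower. Without ESC 1 or without ESC 2, 5 were higher, and without NPC 1, 7 were lower. Notch1 and Notch2 rose by 1.28 (SE 0.19) and 1.03 (SE 0.23), Dner, a ligand, by 4.31 (SE 0.21) and Lfng, a modifier of the receptor, by 2.89 (SE 0.20). Jag2, another ligand, fell, at -4.70 (SE 0.22). Hedgehog genes rose at 8 of 13 and fell at 3. Among those that fell were the targets Gli1 and Ptch1, at -3.55 (SE 0.64) and -0.87 (SE 0.31), Ptch1 not without any 1 library other than NPC 1, while the co-receptors Gas1, Boc and Cdon rose, at 3.56 (SE 0.21), 3.32 (SE 0.44) and 2.44 (SE 0.39). Hhip, which binds the ligand, stood at 16.6 and 69.7 CPM in NPC 1 and 2.

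Of 33 BMP and TGF-beta genes, 19 rose and 7 fell, and 10 stood over 2-fold higher in NPC 2 against 2 in NPC 1. Of the receptors, Acvr2b fell and the other 9 that passed rose, with Tgfbr3 at 3.03 (SE 0.23) and Bmpr1b at 2.76 (SE 0.41) on the log2 scale. Of the Nodal branch, Lefty2 went from 142 and 143 to 0.395 and 0.130 CPM and Gdf3 from 64.1 and 68.5 to 0.132 and 0 CPM. Smad9 and Tgfb2 rose, at 3.56 (SE 0.64) and 2.91 (SE 0.44), and Smad7, an inhibitor, fell, at -3.48 (SE 0.41).

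Guidance genes rose at 23 of 35 and fell at 5, or 3 without ESC 1. Epha5, an ephrin receptor, stood at 0.185 and 0.122 CPM in ESC 1 and 2 and 92.9 and 58.5 CPM in NPC 1 and 2, and Sema6d, a semaphorin, at 1.79 and 2.25 CPM in ESC 1 and 2 and 271 and 154 CPM in NPC 1 and 2. Dcc, the netrin receptor, stood higher by a ratio of 157 (95% interval of counting, 53.4 to 765), and its levels were 22.8 and 6.17 CPM in NPC 1 and 2. Epha3 rose by 6.14 (SE 0.65) and Robo2 by 4.06 (SE 0.39) on the log2 scale. Epha2, the ephrin receptor of ESC, fell, at -3.55 (SE 0.22), as did its ligand Efna1, at -2.32 (SE 0.28).

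**Figure D5:**
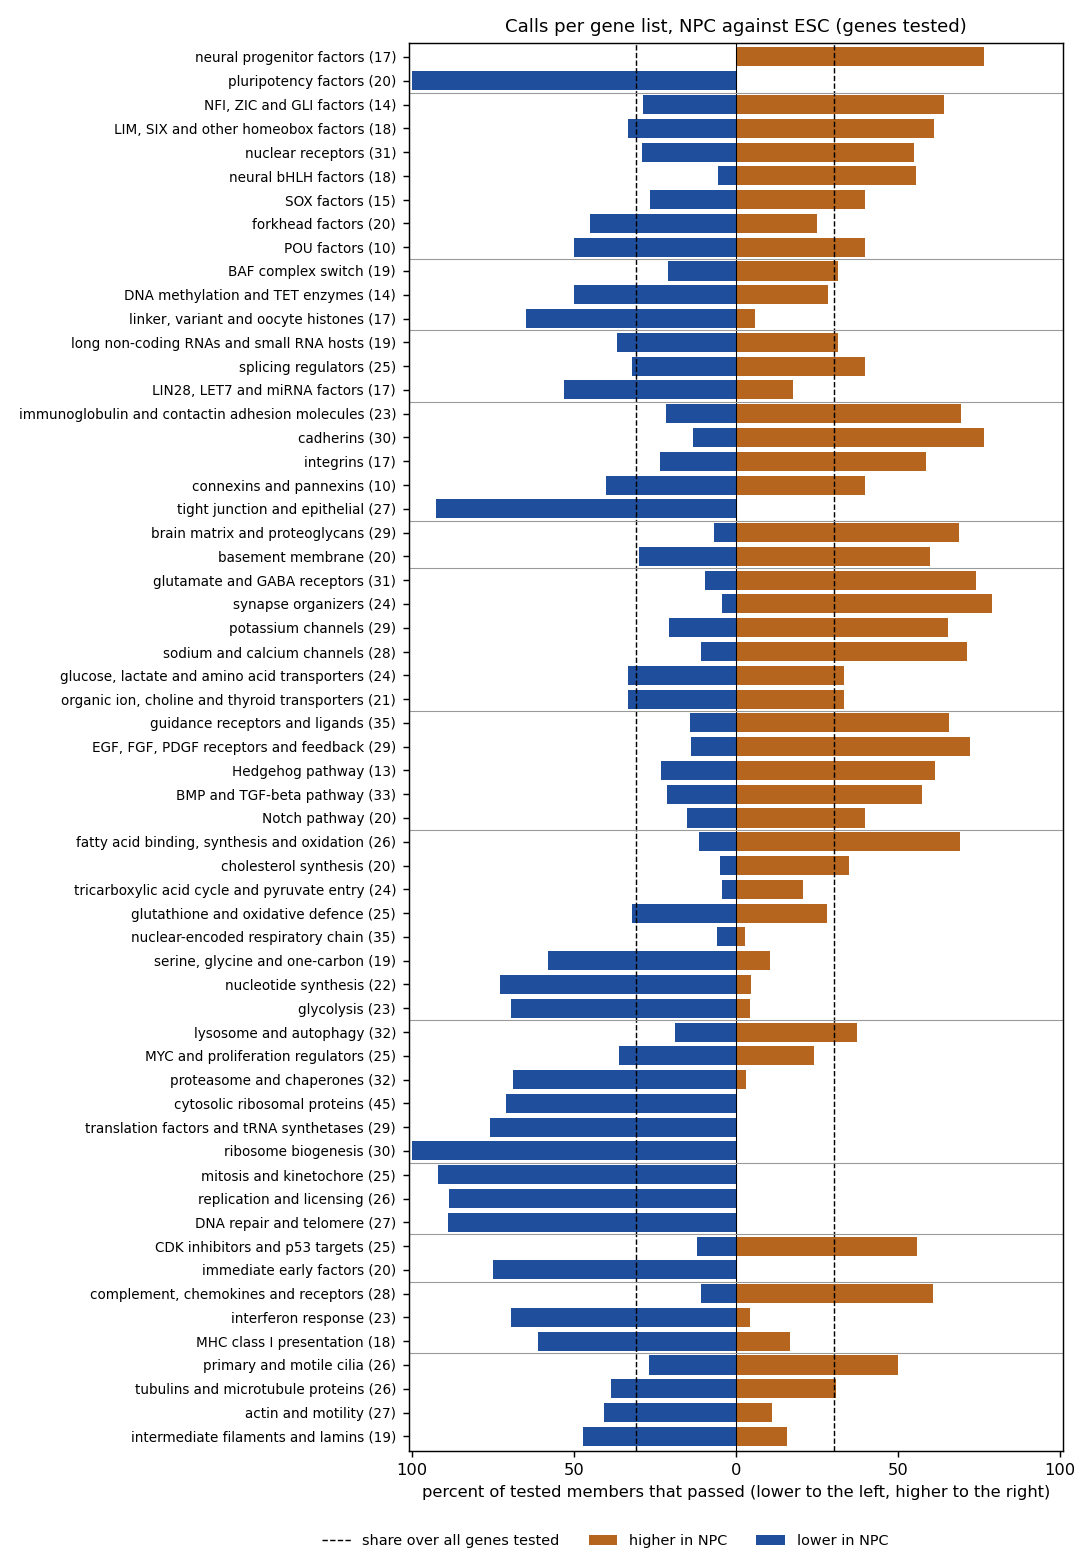
Share of tested members that passed in each gene list. Bars to the right give the percent higher in NPC and bars to the left the percent lower, the number tested is in parentheses, and dashed lines mark the shares over all genes tested (30.4% and 30.9%). Lists for ribosome biogenesis, cell division and tight junctions reach far left, those for receptors, channels and cadherins far right, and the respiratory chain has short bars on both sides.

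Metabolic pathways differed in direction. Glycolysis and glucose uptake genes fell at 16 of 23, with a median of -2.31; the one that rose was Pfkm, the muscle phosphofructokinase, at 1.06 (SE 0.15) on the log2 scale. Hk2 stood at 822 and 835 CPM in ESC 1 and 2 and 65.3 and 36.9 CPM in NPC 1 and 2, while Hk1, the brain hexokinase, stood at 56.99 and 50.6 CPM in ESC 1 and 2 and 52.3 and 48.6 CPM in NPC 1 and 2 and did not pass. The liver and platelet phosphofructokinases Pfkl and Pfkp fell, at -3.26 (SE 0.18) and -3.94 (SE 0.17). Genes of the nuclear-encoded respiratory chain mostly did not pass: 32 of 35 missed the threshold, 1 rose and 2 fell, and their median was 0.01. Ndufs3, of complex I, rose by 0.64 (SE 0.17), though not without ESC 1 or ESC 2, and Cox5a, of complex IV, fell, at -0.96 (SE 0.19). In the tricarboxylic acid cycle 5 of 24 rose and 1 fell; without ESC 1, ESC 2 or NPC 1, 3, 2 and 3 rose, and without NPC 2, 10. Idh1 and Idh2, the isocitrate dehydrogenases that use NADP, rose by 0.78 (SE 0.14) and 0.89 (SE 0.17).

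Of 26 genes of fatty acid binding, synthesis and oxidation, 18 rose and 3 fell, or 1 without ESC 1 or ESC 2. Besides Fabp7, Fabp5 stood at 17.3 and 15.5 CPM in ESC 1 and 2 and 128 and 109.9 CPM in NPC 1 and 2, whereas Fabp3 fell from 23.01 and 25.5 to 1.18 and 0.584 CPM. Acsbg1, which activates very long fatty acids, stood at 1.54 and 1.09 CPM in ESC 1 and 2 and 236 and 116 CPM in NPC 1 and 2, and Fads1, a desaturase, rose by 2.23 (SE 0.12). Cholesterol synthesis genes were near the background for rises, at 7 of 20, or 4 without ESC 2, and fell at 1, Idi1, which was not called without ESC 1, ESC 2 or NPC 2. Hsd17b7 and Sc5d rose by 1.90 (SE 0.20) and 1.10 (SE 0.16).

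Nucleotide synthesis genes fell at 16 of 22 and rose at 1, Prps2, which was not called without ESC 1 or ESC 2. Gart and Paics, of purine synthesis, went from 453 and 448 to 94.2 and 82.7 CPM and from 763 and 763 to 212 and 181 CPM, and Cad, which starts pyrimidine synthesis, from 428 and 409 to 177 and 138 CPM. In serine and one-carbon metabolism 11 of 19 fell and 2 rose, Aldh1l1 and Aldh1l2, which oxidise formyl-folate, or 4 rose without NPC 2. Tdh, threonine dehydrogenase, on which mouse ESC depend, had no count in NPC, a fall of at least 123-fold. Glutathione and oxidative defence genes were near the background, 7 higher and 8 lower of 25, or 4 lower without ESC 2. Gstm7 and Gstm1 rose by 2.49 (SE 0.41) and 2.11 (SE 0.33), and Gsta4 fell, at -2.33 (SE 0.20).

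Ribosome biogenesis genes fell at 30 of 30, with a median of -1.39. Nucleophosmin, Npm1, went from 1470.0 and 1572 to 587 and 635 CPM, and Tcof1, which serves RNA polymerase I, from 130.0 and 129 to 33.2 and 30.6 CPM. Small nucleolar RNA genes, which guide the modification of ribosomal RNA, were lower at 104 (45.02%) and higher at 8 of 231 tested. They lie in introns of host genes, so reads of unspliced host RNA would be counted with them. Ribosomal protein genes fell at 32 of 45 and 0 rose, with a median of -0.78. Leaving out ESC 1 or ESC 2 reduced these to 20 and 21. Reads with more than 1 place in the genome were not counted. HTSeq's tally of non-unique alignments stood at 1.30 and 1.31 per gene read in ESC and 1.14 and 1.11 in NPC. So levels of genes with many processed copies, such as Rpl3 (42.6 and 44.04 to 14.5 and 10.7 CPM) and Gapdh (207 and 208 to 40.6 and 23.9 CPM), are uncertain.

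Translation factors and tRNA synthetases fell at 22 of 29 and 0 rose. Eif4ebp1, a repressor of cap-dependent translation, fell most, at -2.11 (SE 0.12), and Iars, isoleucyl-tRNA synthetase, fell, at -1.43 (SE 0.12). Proteasome and chaperone genes fell at 22 of 32, or 11 to 14 without ESC 1, ESC 2 or NPC 2. Psmb8, a subunit of the immunoproteasome, fell from 14.5 and 15.2 to 0.395 and 0.325 CPM and Hsp90aa1 from 702 and 709 to 128 and 96.9 CPM. Lysosome and autophagy genes did not share this: 12 of 32 rose and 6 fell, although 5 rose without ESC 1 or ESC 2, and 2 and 3 fell. Psap, prosaposin, rose from 189.8 and 183 to 455 and 464 CPM, and Tfeb, a master regulator of lysosomes, fell from 25.8 and 28.7 to 7.23 and 7.79 CPM.

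Replication genes fell at 23 of 26, mitosis genes at 23 of 25 and DNA repair genes at 24 of 27, and 0 rose in any of these lists. Their medians were -1.51, -1.45 and -1.74 on the log2 scale. Orc1, which marks replication origins, stood at 112 and 115 CPM in ESC 1 and 2 and 17.7 and 14.9 CPM in NPC 1 and 2. Terf1, a telomere protein, fell from 128 and 130.3 to 21.4 and 25.8 CPM. Mki67, the proliferation marker Ki-67, stood at 839 and 819 CPM in ESC 1 and 2 and 728 and 524 CPM in NPC 1 and 2 and did not pass, but did as lower without NPC 1. Of the cyclins, Ccnd2 rose as given above and Ccnd1 rose by 2.43 (SE 0.46), while Ccne1 and Ccnb1 fell, at -1.81 (SE 0.13) and -2.06 (SE 0.22). Myc rose from 12.5 and 13.1 to 60.6 and 52.4 CPM and Mycn fell from 147 and 139 to 5.66 and 9.35 CPM.

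Promoters of these genes were searched for letters that E2F factors bind, TTTGGCGC or TTTCCCGC on either strand, in the 250 bases before the start. They were found at 6 of 22 replication genes with a RefSeq promoter entry (27.3%) and at 289 of 11006 tested genes (2.63%). Mcm6, a subunit of the replication helicase, held 2 matches and stood at 510.3 and 505 CPM in ESC 1 and 2 and 165 and 170.1 CPM in NPC 1 and 2. Its promoter is shown as an example of a gene that fell with its group (GRCm38.p6, chr1:128359706-128359955, minus strand), with the matches in capitals.
Mcm6 promoter: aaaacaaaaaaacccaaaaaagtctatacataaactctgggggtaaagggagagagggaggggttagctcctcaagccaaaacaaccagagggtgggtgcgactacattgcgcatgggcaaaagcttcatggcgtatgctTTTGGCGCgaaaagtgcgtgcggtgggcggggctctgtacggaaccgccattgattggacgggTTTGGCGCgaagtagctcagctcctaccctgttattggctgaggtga
A match is a string of letters and shows no binding.

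CDK inhibitors and p53 targets rose at 14 of 25 and fell at 3. Cdkn1a (p21) stood at 55.8 and 53.05 CPM in ESC 1 and 2 and 229 and 175 CPM in NPC 1 and 2 and Cdkn1c (p57) at 36.9 and 39.8 CPM in ESC 1 and 2 and 174 and 194 CPM in NPC 1 and 2. Cdkn2a and Cdkn2c rose by 2.43 (SE 0.31) and 3.86 (SE 0.38) on the log2 scale. The pro-apoptotic targets Pmaip1 and Bbc3 fell, at -2.01 (SE 0.19) and -1.57 (SE 0.17), as did Trp53 itself, at -0.82 (SE 0.23), though not without ESC 1, ESC 2 or NPC 1. Immediate early genes fell at 15 of 20 and 0 rose. Fosb stood at 39.8 and 34.6 CPM in ESC 1 and 2 and 1.18 and 6.95 CPM in NPC 1 and 2 and Atf3, a stress-induced factor, at 27.4 and 28.8 CPM in ESC 1 and 2 and 2.96 and 5.45 CPM in NPC 1 and 2.

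Interferon response genes fell at 16 of 23 and rose at 1, Ifit2, which was not called without ESC 1 or ESC 2. Isg15, a ubiquitin-like protein, stood at 7.89 and 8.46 CPM in ESC 1 and 2 and 0.197 and 0.390 CPM in NPC 1 and 2, and Bst2, tetherin, at 88.1 and 88.8 CPM in ESC 1 and 2 and 10.7 and 10.2 CPM in NPC 1 and 2. The macrophage markers given above fell with this list, and their part was not tested. The letters GAAA, any 2 bases and GAAA again, part of the interferon response element, were found on either strand at 8 of 20 promoters of the list (40%) and at 329 of 11006 (2.99%). Isg15 held 3 overlapping matches (GRCm38.p6, chr4:156200819-156201068, minus strand), in capitals, and is shown as the first gene of this group.
Isg15 promoter: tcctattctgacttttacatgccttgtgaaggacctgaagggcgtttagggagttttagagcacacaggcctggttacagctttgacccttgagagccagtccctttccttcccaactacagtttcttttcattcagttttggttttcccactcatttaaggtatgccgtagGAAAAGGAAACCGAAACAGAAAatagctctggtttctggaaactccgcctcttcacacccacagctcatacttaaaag
The other 3 searches made in the same way gave smaller or opposite differences. The octamer ATGCAAAT was found at 1 of 12 promoters of pluripotency factors (8.33%, against 1.62% of all). The hypoxia core ACGTG was found at 9 of 21 glycolysis genes (42.9%, against 24.3%). The E-box CACGTG, which contains that core, was found at 1 of 24 ribosome biogenesis genes (4.17%, against 9.66%).

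MHC class I presentation genes fell at 11 of 18 and rose at 3, or 0 without ESC 1 or ESC 2. H2-K1 and H2-D1, the classical heavy chains, went from 59.8 and 61.6 to 12.9 and 7.40 CPM and from 38.9 and 38.1 to 9.14 and 6.49 CPM, while B2m, their light chain, stood at 77.2 and 79.9 CPM in ESC 1 and 2 and 73.7 and 71.3 CPM in NPC 1 and 2 and did not pass. H2-K1 and H2-D1 are near-identical in part, so reads may be split between them. Complement, chemokine and cytokine receptor genes rose at 17 of 28 and fell at 3, or 5 without NPC 2. Il18 rose by 3.17 (SE 0.32), C1s, a complement protease, by 3.09 (SE 0.36) and Tnfrsf1a, a TNF receptor, by 3.05 (SE 0.23), whereas C3 fell, at -2.53 (SE 0.39). The complement chains C1qa, C1qb and C1qc, counted above among macrophage markers, fell too. The count of 3 lower therefore does not hold every complement gene that fell.

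Intermediate filament and lamin genes rose at 3 of 19 and fell at 9. Krt8, Krt18 and Krt19, keratins of simple epithelia, fell, Krt18 from 107 and 108 to 0.0658 and 0.130 CPM. Vim, vimentin, stood at 408 and 398 CPM in ESC 1 and 2 and 1701 and 1433 CPM in NPC 1 and 2 and Nes, nestin, at 156 and 165 CPM in ESC 1 and 2 and 978 and 489 CPM in NPC 1 and 2. Lmnb1 and Lmnb2, the B-type lamins, fell, at -1.51 (SE 0.14) and -1.65 (SE 0.17) on the log2 scale. Among tubulin and microtubule genes 8 rose and 10 fell of 26. Tubb2a rose from 12.1 and 10.9 to 86.7 and 41.5 CPM and Tuba4a fell from 64.1 and 63.7 to 1.84 and 0.519 CPM, and Dclk1, a kinase related to doublecortin, rose by 3.28 (SE 0.24).

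Actin genes were lower at 11 and higher at 3 of 27; 7 were lower without ESC 1 or ESC 2 and 7 higher without NPC 1. Ezr, ezrin of epithelial microvilli, went from 279 and 260.1 to 31.04 and 48.8 CPM, and 6 members stood over 2-fold higher in NPC 2, among them Acta2, at 69.02 and 64.2 CPM in ESC 1 and 2 and 10.1 and 52.99 CPM in NPC 1 and 2. Acta2 did not pass, but did as lower without NPC 2. Cilium genes rose at 13 of 26 and fell at 7, or 5 rose without ESC 1 or ESC 2, and 7 without NPC 2; 3 or 4 fell without ESC 1, ESC 2 or NPC 1. Rfx4, a factor of the neural tube, stood at 0.185 and 0.365 CPM in ESC 1 and 2 and 194 and 62.7 CPM in NPC 1 and 2, and Foxj1, the switch for motile cilia, at 2.47 and 2.98 CPM in ESC 1 and 2 and 20.1 and 12.1 CPM in NPC 1 and 2. Of genes for the axoneme, the motile core, Dnah6 fell from 3.95 and 3.65 to 0.263 and 0.584 CPM and Ccdc40 from 15.2 and 13.3 to 1.64 and 1.69 CPM.

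Long non-coding RNAs were mixed, near the background, 6 higher and 7 lower of 19. Pantr1, which neighbours Pou3f3, stood higher by a ratio of 737 (95% interval of counting, 132 to 29158), and its levels were 30.3 and 14.9 CPM in NPC 1 and 2. Airn, the antisense transcript of Igf2r, rose from 2.16 and 2.62 to 28.5 and 36.3 CPM. The strand setting of the counts is not given in the sources used here, so reads of Airn and Igf2r cannot be told apart where they overlap. Neat1, of paraspeckles, went from 478 and 479.9 to 36.4 and 49.9 CPM, while Malat1, of nuclear speckles and the most counted gene in each of the 4 libraries, stood at 15918 and 16474 CPM in ESC 1 and 2 and 19397 and 18547 CPM in NPC 1 and 2 and did not pass, but did as higher without either Phc1-KO library. Snhg1 and Gas5, hosts of small nucleolar RNAs, fell, at -2.10 (SE 0.23) and -1.59 (SE 0.16).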

How the data were processed

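RNA was measured in 6 libraries of 3 groups, 2 in each. The deposited values are raw read counts per gene, which the authors made with STAR and HTSeq on mm9, per the submitters' processing notes. Neither tool versions nor the annotation release or strand setting of the counts is given in the sources used here. Each table holds 37620 genes, and HTSeq's 5 closing tallies were left out of library sizes and tests. Names came from GENCODE M1 for 37205 genes, and 415 stayed unnamed. Genes were kept by edgeR's filterByExpr (minimum count 10, minimum total 15), scaled by TMM and tested with edgeR 4.0.16's quasi-likelihood test in R 4.3.3. One fit took in all 6 libraries, leaving 3 residual degrees of freedom, with Benjamini-Hochberg adjustment and a threshold of 0.05. It used 1 spread per gene for all groups, although the coefficient of variation within a pair was 1.98% for ESC and 27.5% for NPC. SEs and adjusted p-values therefore average over unequal spreads, and the effect of this on the calls was not tested. The Phc1-KO pair entered the same estimate, and its own spread is not given here. For each read in a gene, 1.08 and 0.661 reads fell outside genes in the Phc1-KO libraries. Alternatives used DESeq2 1.42.0, limma-voom 3.58.1, other scalings, filters, sample sets and a replicate term. The test was tested on simulated data. The label texts of the Phc1-KO libraries disagree on their genotype, so no comparison with them is given.

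Where a group had no count, the fold is a bound from a floor of 3 counts over the group, and where it had 1 to 3 counts, the ratio has a 95% counting interval; both cover counting error only. Gaps within a pair used 0.5 CPM as pseudocount. The members and gene lists were chosen with earlier results of these data known. Genes were named by a rule: for each list the first 4 members and the 4 largest increases and decreases that passed, over all genes the largest changes and levels gained or lost, and the largest gaps within the NPC pair. Under that rule the largest changes over all genes had to pass without overlap of the groups, at a mean of at least 4 CPM. The microRNA loci, Mcm6 and these genes fall outside it and were chosen after their values were seen: Acvr2b, Bst2, C1qb, Cacna1g, Cdon, Dchs1, Drosha, Dsg2, Dusp6, En1, Fat3, Fgfr1, Fgfr2, Gapdh, Gas5, Grin2a, Grin3a, Jup, Kcnj10, Kcnk2, Lmnb1, Lmnb2, Lrig1, Lyz2, Mbnl1, Mki67, Mog, Otx2, Pfkp, Prrx1, Robo2, Slc7a11, Smad7, Spry1, Tcf4, Terf1, Tjp1, Tnc and Tyrobp.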

Additional observations from a re-analysis of the deposited data

How the results depend on the processing

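Counts of genes higher and lower in NPC ranged from 4861 to 5323 and from 5134 to 5913 over other scalings, filters and tools and over a fit of the NPC and ESC libraries alone. No gene called with all 6 libraries and the reported settings was called the other way in any of these or of the alternatives below; Dll1, which was not, was called lower without NPC 1 and higher without NPC 2. Against a 2-fold change, 2629 were higher and 2584 lower of 17489 tested, so most did not pass. Leaving out 1 library at a time gave 3564 to 5493 higher and 3896 to 5711 lower, lowest without an ESC library; the ESC pair counted as 1 library gave 3703 and 4205. With the replicate block, 5142 were higher and 5282 lower. The numbers did not pair the libraries: deviations of same-numbered libraries correlated at 0.0174 (ESC and NPC), 0.0202 (ESC and Phc1-KO) and -0.0207 (NPC and Phc1-KO), across genes. Genes over 2-fold apart between the NPC libraries numbered 379 higher in NPC 2 and 439 higher in NPC 1 with a pseudocount of 2 CPM.

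Of 328 genes named and tested, 313 passed. Leaving out 1 library turned the sign of 7, of which Cd93 alone had passed. Their log2 fold changes ranged from -0.335 to 5.32 for Cd93, -0.039 to 0.521 for Cdh5, -1.42 to 1.63 for Dll1, -0.036 to 0.183 for Gja1, -2.21 to 0.024 for Kcnj10, -0.612 to 2.17 for Sfrp1 and -0.189 to 0.146 for Tjp1. With upper-quartile scaling Gja1 stood at -0.02. The cause was not tested. Gfap, Aqp4, Stra6, Osr2, Aldh1a2, Cd93 and Gabbr2 lost their calls with limma-voom. Aldh1a2, Cd93, Gabbr2 and Ptch1 also lost them in the fit of NPC and ESC alone and without either Phc1-KO library, and Cd93 with the replicate block (adjusted p = 0.0533). Of 132 list counts, 58 moved by over 1.5 times against a 2-fold change, 20 with the ESC pair as 1 library, 23 and 24 without ESC 1 and ESC 2, 11 and 14 without NPC 1 and NPC 2, and 4 or fewer in each other alternative. With 2 libraries a group, a gene that did not pass is not shown to be unchanged.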

Other observations

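Genes of chromosome 11 stood above the others. Over the 1479 genes tested there, the median log2 fold change of NPC over ESC was 0.35, and over the other autosomes it ranged from -0.23 (chromosome 6) to 0.08. Of the 1479, 39.01% were higher and 21.8% lower. Among the 1300 with a mean over 1 CPM, the medians against the ESC mean were 0.33 in NPC 1 and 0.35 in NPC 2, and -0.02 and -0.07 in the Phc1-KO libraries. In windows of 20 Mb along the chromosome, both NPC libraries had medians above 0 in each of 7 windows, from 0.15 to 0.52 in NPC 1. This pattern was noticed in the data and has no test.

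Long genes rose more often than short ones. In the fifth of protein-coding genes with the longest span, 48.1% were higher and 21.99% lower, and in the fifth with the shortest span 23.8% and 34.4%. Long intergenic RNA genes were higher at 234 and lower at 161 of 732 tested. These shares are descriptions, and reads outside genes were also more frequent in NPC.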
